A study of Mus musculus with 6 samples.

Results

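The genes described here are the mouse zinc finger genes whose platform annotation gives a single symbol from Zfp900 to Zfp999. They were chosen by the array values of 2 of them, Zfp979 and Zfp980, which were higher in all knockout pools than in all heterozygote pools, so the difference between the genotypes is given for each member as a description with no p-value of its own, and counts of calls among the members stand only beside the same counts over all rows. The rule found 34 genes of the 19938 with a row of exactly 1 symbol, on 36 of 21789 such rows. Each gene was read from its brightest row, and 33 of the 34 have a single row. RefSeq holds 62 genes with a current symbol in this number range, so a large part of the range is not seen through rows of its own.

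RNA came from heads of C57BL/6 embryos at E8.5, when the neural folds are closing, and was labeled for Affymetrix Gene ST arrays of the mouse, which read each gene with a set of probes along the transcript. The knockouts lack Jarid1b, also called Kdm5b, a demethylase that removes methyl groups from lysine 4 of histone H3. Both genotypes carried the constitutive deletion of exon 6 made with Cre driven by the Cmv promoter, on both alleles in the knockouts and on 1 allele in the heterozygotes, which were the controls, and wild-type heads were not measured. Each genotype had 3 pools of 4 heads. Every p-value, SE and confidence interval rests on the spread among these 6 pools, moderated by the variances of the other rows in the fit. In a pool, fewer cells of a type and less RNA per cell cannot be told apart.

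Most numbered Zfp genes of recent number encode proteins with an array of C2H2 zinc fingers, each of which reads a few bases of DNA, and many of these proteins carry a KRAB domain at the other end. The KRAB domain binds Trim28, also called KAP1, which brings in a histone H3 lysine 9 methyltransferase and heterochromatin proteins, and in early embryos this machinery keeps many retrotransposons silent. The genes multiply by tandem duplication and lie in clusters of close relatives, which makes their transcripts hard to tell apart. Few of the 34 genes have been studied one by one.

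Jarid1b itself was read first, since it checks the labels. Its row stood at 9.17, 9.12 and 9.16 log2 units in heterozygote replicates 1, 2 and 3 and at 7.63, 7.47 and 7.71 in the knockouts. The log2 fold change was -1.55 (SE 0.07, limma adjusted p = 6.29e-04), and this was the single row of 21789, or 0.00459%, at an adjusted p under 0.05.

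The sequences upstream of Zfp979 and Zfp980 show how close these copies are. In RefSeq order on chromosome 4 (assembly GRCm38.p6), 18 protein-coding genes lie from Zfp990 to Zfp933, numbered Zfp genes apart from Gm13212 and Rex2, and 6 of them are measured members. The 250 bases before the start were compared for the 5 of these 6 for which RefSeq windows were given; Zfp991 had none. They lie at chr4:145670447-145670696 on the plus strand for Zfp980, chr4:147492167-147492416 on the plus strand for Zfp982, chr4:147553027-147553276 on the plus strand for Zfp985, chr4:147642509-147642758 on the minus strand for Zfp979 and chr4:147848419-147848668 on the minus strand for Zfp933. Zfp982 has 3 annotated starts, and the window that best matches that of Zfp979 is printed and compared. Capitals mark stretches of at least 12 letters that Zfp979, Zfp980, Zfp982 and Zfp985 all share in the same order, 90 bases in each window.
Zfp979: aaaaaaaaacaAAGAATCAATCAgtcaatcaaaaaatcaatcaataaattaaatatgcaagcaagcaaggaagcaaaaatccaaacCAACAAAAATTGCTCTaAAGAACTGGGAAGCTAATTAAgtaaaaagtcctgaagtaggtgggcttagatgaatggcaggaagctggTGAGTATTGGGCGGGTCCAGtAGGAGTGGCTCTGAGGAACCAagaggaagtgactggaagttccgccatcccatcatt
Zfp980: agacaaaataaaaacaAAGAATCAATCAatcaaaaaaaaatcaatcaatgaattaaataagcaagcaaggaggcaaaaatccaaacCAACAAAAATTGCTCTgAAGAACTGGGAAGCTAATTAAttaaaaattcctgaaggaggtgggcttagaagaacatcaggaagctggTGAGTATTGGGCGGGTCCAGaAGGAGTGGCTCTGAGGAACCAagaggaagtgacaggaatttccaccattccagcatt
Zfp982: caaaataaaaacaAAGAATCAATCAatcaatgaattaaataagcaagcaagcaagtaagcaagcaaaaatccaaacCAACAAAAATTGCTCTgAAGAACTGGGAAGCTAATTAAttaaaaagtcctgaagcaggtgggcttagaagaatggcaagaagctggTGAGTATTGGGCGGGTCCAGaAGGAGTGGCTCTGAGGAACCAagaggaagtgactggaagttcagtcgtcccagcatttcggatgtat
Zfp985: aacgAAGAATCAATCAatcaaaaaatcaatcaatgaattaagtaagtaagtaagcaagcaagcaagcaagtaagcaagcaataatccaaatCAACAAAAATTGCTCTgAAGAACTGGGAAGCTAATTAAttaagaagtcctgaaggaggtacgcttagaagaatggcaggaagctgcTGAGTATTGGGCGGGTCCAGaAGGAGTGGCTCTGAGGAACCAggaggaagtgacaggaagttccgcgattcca
Zfp933: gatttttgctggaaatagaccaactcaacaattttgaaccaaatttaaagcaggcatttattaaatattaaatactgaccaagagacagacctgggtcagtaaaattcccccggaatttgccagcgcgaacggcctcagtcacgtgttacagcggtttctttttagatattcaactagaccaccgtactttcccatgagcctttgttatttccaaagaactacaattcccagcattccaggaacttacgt

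After alignment, the windows of Zfp979 and Zfp980 matched at 90.4% of their 250 positions. The match of Zfp979 was 88.4% with Zfp982, 86.4% with Zfp985 and 96.0% with Zfp600, a gene of the same cluster outside the number range. Zfp933, at the end of the cluster, holds none of the shared stretches. The longest shared stretches, AAGAACTGGGAAGCTAATTAA and AGGAGTGGCTCTGAGGAACCA, were searched on both strands of 32851 RefSeq windows of this length. Each was found in 9 windows (0.0274%), and these belong to 9 genes, all within the cluster. A match of letters describes the sequence and is not evidence of a bound factor.

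The windows of the members held few CpG dinucleotides, the sites at which mouse DNA is methylated. Here the first listed start of each gene was taken, and for Zfp982 that window held 11 CpG, against 3 in the printed one. Among the 32 members with a window, the median was 6 CpG and the GC content 50.6%, against 12 CpG in 229 other numbered Zfp genes and 11 CpG in 15614 tested genes. Zfp979 had 2 and Zfp980 had 1, and Zfp931 and Zfp971 also had 2. Upstream GC content of the pair was low, at 39.6% for Zfp979 and 38.4% for Zfp980. The medians were 54.8% in the other numbered Zfp genes and 56.4% in the tested genes. Low GC content was not particular to the pair, with 40.4% for Zfp933 and 41.6% for Zfp985. Zfp982 had 40.8% in the printed window and 52.4% at its first listed start.

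Zfp979 was read at 5.36, 5.67 and 5.69 log2 units in heterozygote replicates 1, 2 and 3, and at 6.07, 6.02 and 6.12 in the knockouts. All 3 knockout pools lay above all 3 heterozygote pools, and the knockouts were close together while heterozygote replicate 1 was low. The means were 5.57 ± 0.18 and 6.07 ± 0.05 (SD, n = 3 each), a log2 fold change of 0.50 (SE 0.09, 95% confidence interval 0.28 to 0.71), or 1.41-fold. Its intensity was above that of 41.2% of the tested rows.

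Zfp980 was read at 2.42, 2.49 and 2.19 in the heterozygotes and at 2.78, 2.88 and 3.02 in the knockouts. Here too the groups did not overlap, and the pool that was lowest was heterozygote replicate 3, not replicate 1. The means were 2.37 ± 0.16 and 2.89 ± 0.12 (SD, n = 3 each), a log2 fold change of 0.52 (SE 0.10, 95% confidence interval 0.30 to 0.75), or 1.44-fold. This row is among the dimmest on the arrays, with 1.80% of rows below it, and the table carries no detection call, so whether the transcript was above background was not tested. The plot of log2 intensity per pool shows both genes beside 6 other members.

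**Figure D1:**
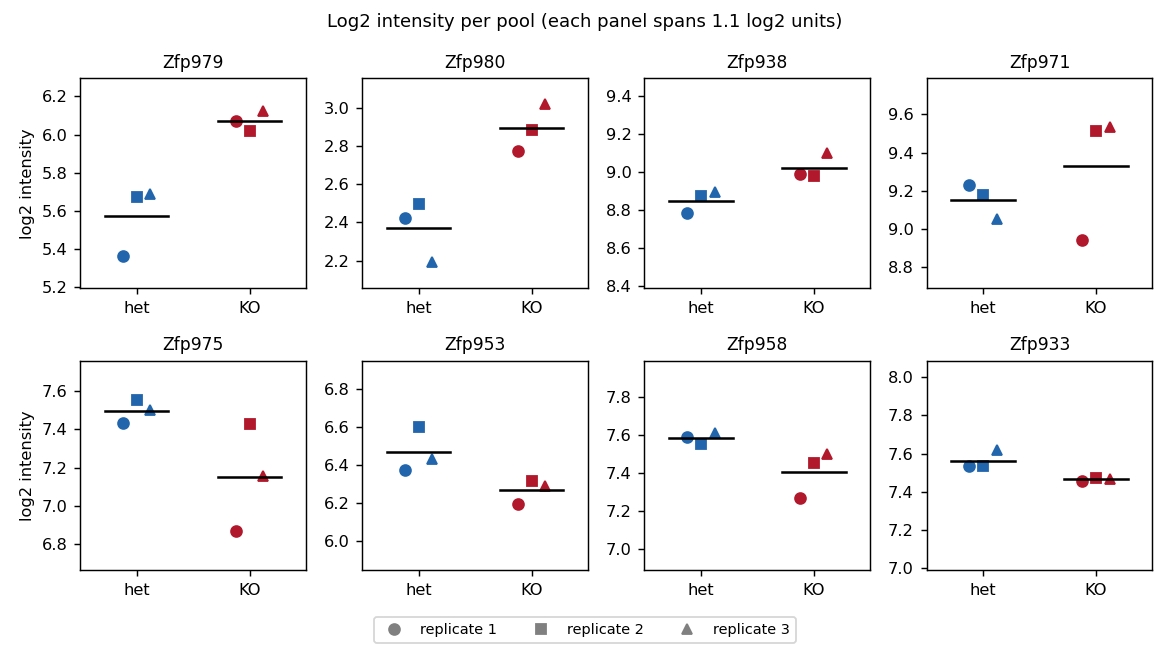
Log2 intensity (vertical axis) of 8 members in the 3 heterozygote (het, blue) and 3 knockout (KO, red) pools, with symbols for the replicate number and horizontal black lines for the genotype means; every panel spans the same range of log2 units. Zfp979, Zfp980 and Zfp938 have all knockout pools on top, Zfp975, Zfp953, Zfp958 and Zfp933 have them below, and in Zfp971 knockout replicate 1 lies apart at 8.94.

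Dim rows tended to be higher in the knockouts, which is why each member was set beside the 1000 tested rows nearest to it in mean intensity. In the 7263 dimmest rows the median log2 fold change was 0.06 and in the 7263 brightest it was -0.04. The median of the rows like Zfp979 was 0.05, and 1 of these 1000 rows had a larger log2 fold change than Zfp979. For Zfp980 the median was 0.04, and 0 of 1000 were larger. These positions describe the choice of the pair and support nothing further.

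**Figure D2:**
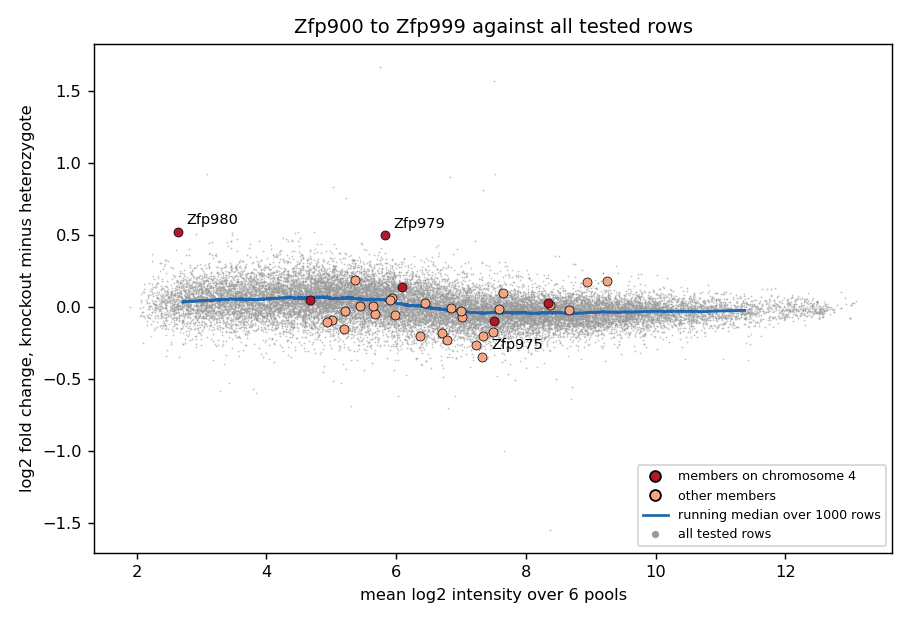
Log2 fold change, knockout minus heterozygote, against mean log2 intensity over the 6 pools for all 21789 tested rows (gray points), the 34 members (circles, dark red on chromosome 4) and the running median over 1000 rows (blue line). The running median is above 0 among dim rows and below 0 among bright rows, and Zfp979 and Zfp980 stand 0.50 and 0.52 log2 units above 0.

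The other members of the chromosome 4 cluster did not share this separation. Zfp985, which lies next to Zfp979, was read at 5.92, 5.95 and 6.17 in the heterozygotes and at 5.95, 6.36 and 6.16 in the knockouts. Its groups overlapped, with a log2 fold change of 0.14 (SE 0.11, 95% confidence interval -0.12 to 0.40). Zfp985 is the member with 3 rows, and all 3 gave a positive difference, of 0.05, 0.14 and 0.16.

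Zfp982 was read at 4.39, 4.57 and 4.98 in the heterozygotes and at 4.85, 4.60 and 4.62 in the knockouts, a log2 fold change of 0.05 (SE 0.15). The highest and the lowest of its 6 values were both heterozygote pools. Zfp991 was read at 8.25, 8.31 and 8.43 and at 8.23, 8.52 and 8.32, a log2 fold change of 0.03 (SE 0.09), again with overlapping groups. The 95% confidence interval ran from -0.29 to 0.39 for Zfp982 and from -0.17 to 0.23 for Zfp991.

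Zfp933, the last gene of the cluster, was the only one of the 6 with a lower knockout mean. It was read at 7.53, 7.54 and 7.62 in the heterozygotes and at 7.46, 7.47 and 7.47 in the knockouts. The groups did not overlap, although the log2 fold change was small, at -0.10 (SE 0.05, 95% confidence interval -0.22 to 0.03). Among the rows of similar intensity the median was -0.04, and 276 of 1000 were lower than Zfp933.

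Zfp600, which encodes a zinc finger protein of the same cluster and whose upstream window is close to that of Zfp979, had overlapping groups. It stood at 2.29, 2.26 and 2.22 in the heterozygotes and at 2.68, 2.17 and 2.24 in the knockouts, and its log2 fold change was 0.10 (SE 0.13, limma adjusted p = 0.794). Knockout replicate 1 alone was high, and without that pool the value was -0.06. The plot of the cluster in gene order shows that the 2 high members are separated by genes without a row of their own and by genes whose pools overlap.

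**Figure D3:**
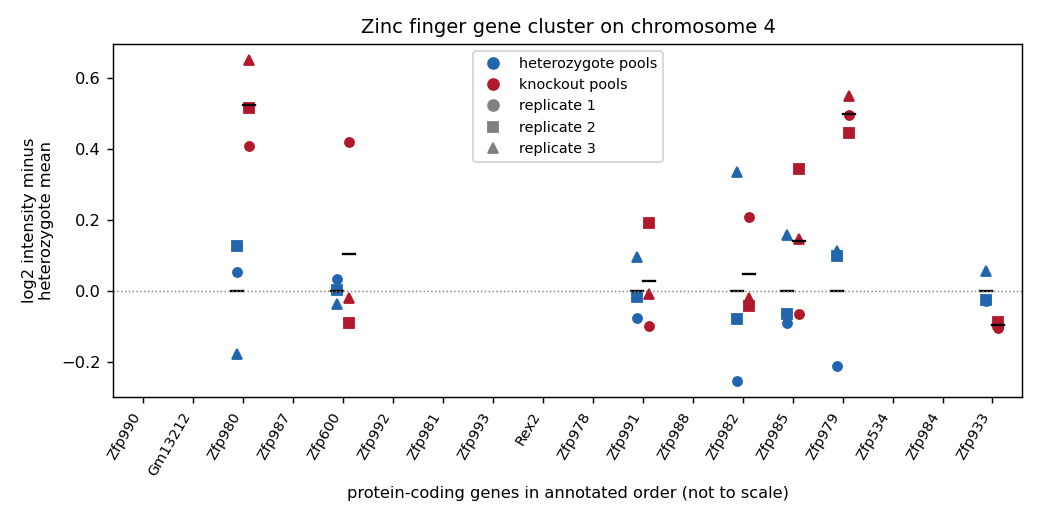
Log2 intensity of each pool minus the heterozygote mean of the same gene (vertical axis) for the protein-coding genes from Zfp990 to Zfp933 on chromosome 4 in annotated order, with blue for heterozygote pools, red for knockout pools and short black lines for the means; genes without points have no row with a single symbol. The knockout means are 0.52 for Zfp980 and 0.50 for Zfp979, and lie between -0.10 and 0.14 for the other 5 genes.

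Apart from the rows with a single symbol, annotation of the arrays gives several gene symbols to 27 further rows that list at least 1 gene of this number range. They list 30 such genes in all, of which 18 have no row of their own. No gene can be named from these rows, and they were fitted together with all rows of the table. Their log2 fold changes ran from -0.25 to 0.21 with a median of 0.05, and 19 were positive and 8 negative. None passed an adjusted p of 0.05 in limma, which 0.00281% of all 35556 rows did. At an unadjusted p under 0.05 there were 2 higher rows and 0 lower ones, where 5.08% of all rows were higher and 3.5% lower. Groups did not overlap in 2 rows in each direction, against 8.11% of all rows on the higher and 7.73% on the lower side. Both rows with 17 symbols held identical values in all pools, so they count as 1 measurement.

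The row that lists Zfp979 and Zfp980 together, among 6 symbols, stood at 7.41, 7.31 and 7.46 in the heterozygotes and at 7.58, 7.69 and 7.54 in the knockouts. Its log2 fold change was 0.21 (SE 0.07, limma adjusted p = 0.565), with no overlap of the groups. A row with 13 symbols that includes 1 of the pair had 0.19 (SE 0.07, limma adjusted p = 0.572), and a row with 8 symbols had 0.16 (SE 0.07, limma adjusted p = 0.586). Such values were not particular to rows that list the pair. A row with 10 symbols and neither gene had 0.18 (SE 0.09, limma adjusted p = 0.605). Another with 5 symbols and neither gene had 0.17 (SE 0.07, limma adjusted p = 0.581). The 8 negative rows also list neither gene. Since several cluster genes share rows, how far the rows of Zfp979 and Zfp980 read those 2 transcripts alone was not tested.

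Across all 34 members, log2 fold changes ran from -0.35 to 0.52, with a median of -0.02 against 0.00 over all tested rows (-0.0162 and -0.0007 before rounding). The knockout mean was higher for 15 members and lower for 19. No member reached 2-fold, 18 had a log2 fold change within 0.1 of 0, and the 95% confidence interval spanned 0 for 27. Leaving out Zfp979 and Zfp980, the largest positive value among the other 32 was 0.19 and the median was -0.02.

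At an adjusted p under 0.05 in limma, 0 of the 34 were called. With an unadjusted p under 0.05 there were 3 higher members (8.82%) and 4 lower ones (11.8%), where 5.97% of all rows were higher and 4.66% lower. Groups did not overlap for 3 higher members and 4 lower members, against 8.03% and 9.03% of all rows. The lower count of 4 became 0 without knockout replicate 1, 1 without heterozygote replicate 2 and 2 without heterozygote replicate 3. Over all 21789 rows, the lower count of 1016 became 1077, 664 and 619 in the same order. The member counts come from the contrast on which the genes were chosen, and nothing is read from them. Set beside rows of their own intensity, 16 members were above and 18 below the median of those rows, 13 lay between the quartiles, 12 below the lower and 9 above the upper quartile.

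**Figure D4:**
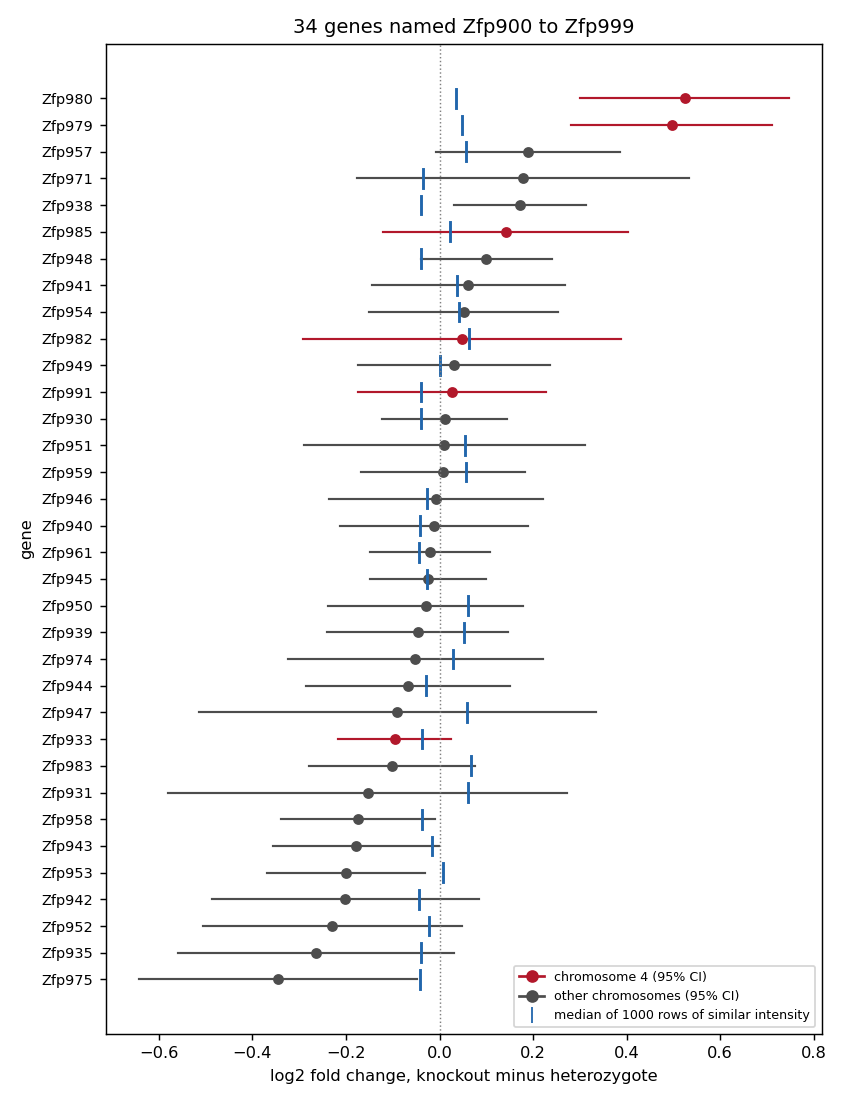
Log2 fold change, knockout minus heterozygote (horizontal axis), of the 34 members in order of size, with 95% confidence intervals; red marks chromosome 4 and blue ticks give the median of the 1000 rows of similar intensity. Zfp980 and Zfp979 are at the top with 0.52 and 0.50, Zfp975 is at the bottom with -0.35, and 27 intervals span 0.

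The remaining member with all knockout pools on top was Zfp938, on chromosome 10. It was read at 8.78, 8.87 and 8.89 in the heterozygotes and at 8.99, 8.98 and 9.10 in the knockouts. The separation was narrow, with a log2 fold change of 0.17 (SE 0.06), and 4 of 1000 rows of similar intensity had a larger value. Zfp957, with the third highest log2 fold change among the members, was read at 5.36, 5.16 and 5.30 and at 5.34, 5.44 and 5.60, and its groups overlapped (log2 fold change 0.19, SE 0.08, or 0.12 without knockout replicate 3).

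Among the lower members, Zfp975 on chromosome 7 had the largest difference. It was read at 7.43, 7.55 and 7.50 in the heterozygotes and at 6.87, 7.43 and 7.15 in the knockouts, with a log2 fold change of -0.35 (SE 0.13, 95% confidence interval -0.64 to -0.05). Its knockout pools spread over a far wider range than its heterozygote pools, and the highest of them was close to the lowest heterozygote pool. Without knockout replicate 1 the value was -0.20.

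Zfp953 and Zfp935 are the 2 members on chromosome 13, and both had lower knockout means. Zfp953 was read at 6.37, 6.60 and 6.43 and at 6.20, 6.32 and 6.29, without overlap (log2 fold change -0.20, SE 0.07). Zfp935 was read at 7.39, 7.31 and 7.39 and at 6.79, 7.33 and 7.17, with overlap, since knockout replicate 2 lay within the heterozygote range (log2 fold change -0.26, SE 0.13). Without knockout replicate 1, Zfp935 was at -0.11.

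Zfp958, on chromosome 8, was read at 7.59, 7.55 and 7.61 in the heterozygotes and at 7.27, 7.45 and 7.50 in the knockouts, without overlap (log2 fold change -0.17, SE 0.07). It too depended on knockout replicate 1 for its size, with -0.11 when that pool was left out. Zfp952, among the 3 lowest members, was read at 6.91, 7.06 and 6.74 and at 6.75, 6.84 and 6.44, with overlapping groups (log2 fold change -0.23, SE 0.12). In Zfp952 the low pool was knockout replicate 3, and leaving it out gave -0.11, while leaving out heterozygote replicate 2 gave -0.15.

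Pools of 1 genotype differed more from each other in these genes than in most rows of the arrays. The SD among pools of the same genotype had a median of 0.126 log2 units over the members and 0.0892 over all tested rows. Since dim rows are noisier, each member was again set beside its 1000 neighbors in intensity: 25 of 34 had a larger SD than the median of those rows, and the median ratio was 1.25. For 10 members, fewer than 100 of the 1000 rows had a larger SD. These values do not involve the difference between the genotypes. Neighboring members can be close copies, as the upstream windows of most compared chromosome 4 members were, so members need not be independent measurements. Similarity was not compared for the other clusters.

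The largest SDs were those of Zfp931 and Zfp947, both 0.30. Zfp931 was read at 5.59, 4.87 and 5.34 in the heterozygotes and at 4.86, 5.28 and 5.20 in the knockouts, so the knockout pools all lay within or just below the heterozygote range. Zfp971, the neighbor of Zfp931 on chromosome 2, was bright for this set, with 86.0% of rows below it, and read 9.23, 9.18 and 9.05 against 8.94, 9.51 and 9.53. Only 4 of 1000 rows of similar intensity had a larger SD than Zfp971, whose log2 fold change of 0.18 (SE 0.15) had an interval from -0.18 to 0.53. At the other end, Zfp933 and Zfp945 had SDs of 0.03 and 0.04, and 962 and 931 of their 1000 neighbors had larger ones.

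A single pool stood apart over many members. Knockout replicate 1 held the lowest of the 6 values for 14 of 34 members (41.2%), against 26.1% of the 283 other numbered Zfp genes and 17.9% of all rows. In that pool 9 members (26.5%) were at least 0.2 log2 units below their own mean over the 6 pools, against 3.46% of all rows. The median deviation of the members from their own means was -0.0723 in knockout replicate 1, while the remaining 5 pools had medians from -0.0032 to 0.0535. Among the 27 rows with several symbols, 12 (44.4%) were lowest in the same pool.

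Zfp975, Zfp935 and Zfp942 were the furthest below their means in knockout replicate 1, by deviations of -0.45, -0.44 and -0.38 log2 units. Zfp931, Zfp971, Zfp958, Zfp944, Zfp946 and Zfp943 followed, with deviations from -0.33 to -0.20. Zfp979 and Zfp980 were above their means in that pool, which their choice as higher in all knockout pools fixed. Leaving it out took the members with an unadjusted p under 0.05 from 4 to 0 on the lower side and from 3 to 6 on the higher side. Over all 21789 rows the same step took the lower rows from 1016 to 1077 and the higher rows from 1301 to 1383. Nothing is read from the member counts, which come from the contrast on which the genes were chosen. The values of the pair hardly depended on knockout replicate 1, with 0.50 for Zfp979 and 0.58 for Zfp980 when it was left out.

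**Figure D5:**
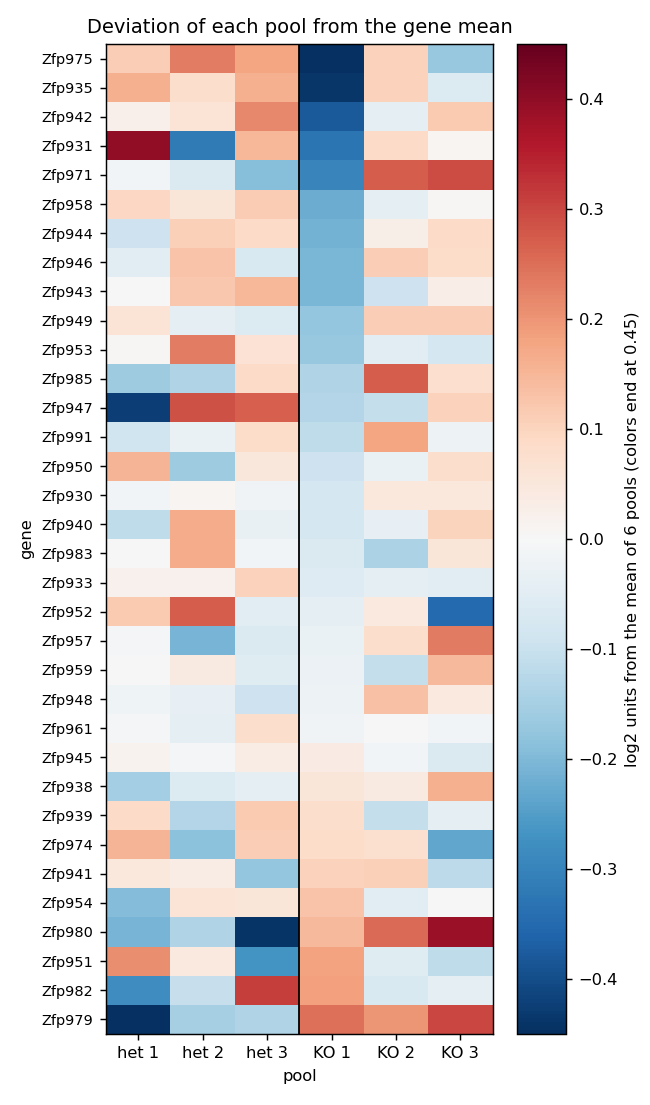
Deviation of each pool from the mean of the gene over the 6 pools, in log2 units (color scale), for the 34 members (rows, in order of the deviation in knockout replicate 1) and the 6 pools (columns, with a line between the genotypes). The column of knockout replicate 1 is blue for most genes and reaches -0.45 in Zfp975, while Zfp979 and Zfp980 are red in all 3 knockout columns.

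The members were spread over 11 chromosomes, and 24 of 34 (70.6%) were next to another numbered Zfp gene, against 3.0% of 21900 protein-coding genes. Chromosome 17 holds the most, with 10 members, of which 8 had lower knockout means and the median log2 fold change was -0.08. None of the 10 had groups that did not overlap, where 17.1% of all rows did in either direction, and nothing is read from this count. The values ran from -0.23 in Zfp952 to 0.10 in Zfp948. On chromosome 4 the median over 6 members was 0.09, and 5 were positive, the pair included. The 6 members on chromosome 7 ran from -0.35 to 0.06, and the 3 on chromosome 8 from -0.17 to 0.01.

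On chromosome 17, Zfp942, Zfp943 and Zfp947 follow each other, and Zfp944 and Zfp946 lie on either side of Zfp758, which is outside the number range. Log2 fold changes were -0.20 (SE 0.12) for Zfp942, -0.18 (SE 0.08) for Zfp943 and -0.09 (SE 0.18) for Zfp947. Zfp758 had the lowest value of all other numbered Zfp genes, at 5.38, 5.28 and 5.57 in the heterozygotes and 4.39, 5.15 and 5.10 in the knockouts (log2 fold change -0.53, SE 0.19, limma adjusted p = 0.419). Without knockout replicate 1 it was at -0.29 and no longer the lowest, so its place rests on that pool. That pool was its lowest, as it was for Zfp942, Zfp943, Zfp944 and Zfp946. The 2 members beside it were near 0, with -0.07 (SE 0.09) for Zfp944 and -0.01 (SE 0.10) for Zfp946.

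The 283 other numbered Zfp genes served as the closest comparison by name and protein class. Their median log2 fold change was -0.03, with 96 positive and 187 negative. None passed an adjusted p of 0.05 in limma. An unadjusted p under 0.05 was reached by 7 higher (2.47%) and 28 lower genes (9.89%), against 5.97% and 4.66% of all rows. Groups did not overlap for 12 higher (4.24%) and 35 lower genes (12.4%), against 8.03% and 9.03% of all rows. Of the 283 genes, 151 were among the 7263 rows of middle intensity and 105 among the 7263 brightest. In the middle rows, 3.31% of these genes were higher and 12.6% lower at unadjusted p under 0.05, against 6.72% and 5.71% of all. Among the brightest, the shares were 0.952% and 7.62%, against 0.716% and 6.71%. Zfp850 had the highest value of the 283 genes, 0.34 (SE 0.11, limma adjusted p = 0.407), or 0.22 without heterozygote replicate 1. Of the members 17.6% and of the other numbered Zfp genes 9.54% were among the 7263 dimmest rows, which make up 33.3% of all rows, and the difference between the 2 sets was not tested.

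Partners of KRAB zinc finger proteins were read from a list of 20 genes for the corepressor Trim28, heterochromatin proteins, histone deacetylases, chromatin remodelers and DNA methyltransferases. All 20 were measured, none passed an adjusted p of 0.05 in limma, and the median was 0.00. With an unadjusted p under 0.05, 1 gene was higher (5%) and none lower, where 5.97% of all rows were higher and 4.66% lower. Groups did not overlap for 1 higher (5%) and 3 lower genes (15%), against 8.03% and 9.03% of all rows. Among the 7263 brightest rows, which hold 19 of the 20, these shares were 3.06% and 16.8%. Trim28 stood at 10.46, 10.53 and 10.46 in the heterozygotes and at 10.56, 10.50 and 10.56 in the knockouts, a log2 fold change of 0.05 (SE 0.05, limma adjusted p = 0.739). The highest value was that of Chd3, a remodeler of the NuRD complex, with 0.15 (SE 0.06, limma adjusted p = 0.460). Morc3, an ATPase found with heterochromatin, had the lowest, with -0.12 (SE 0.07, limma adjusted p = 0.571), and was at -0.05 without knockout replicate 1.

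Of 11 KRAB zinc finger genes with described roles, 10 were measured, with a median of -0.04 and a highest value of 0.10 in Zfp600, and none passed an adjusted p of 0.05. Zfp30 was at -0.28 (SE 0.08, limma adjusted p = 0.391) and Zfp809, which represses murine leukemia virus elements, at -0.14 (SE 0.06, limma adjusted p = 0.465). Both had groups that did not overlap, and they were the 2 genes of the list (20%) at an unadjusted p under 0.05. Of all rows, 4.66% were lower at that threshold and 9.03% were lower without overlap.

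Genes other than the members on either side of Zfp979 and Zfp980 were also read, up to 25 in each direction, Zfp600 included. Of 88 such genes 19 had a row of a single symbol, with a median of -0.03 and none at an adjusted p under 0.05 in limma. The lowest was Fv1, a restriction factor against murine leukemia virus, which lies just past Zfp933 and Miip. It stood at 7.47, 7.47 and 7.41 in the heterozygotes and at 7.35, 7.34 and 7.18 in the knockouts, a log2 fold change of -0.16 (SE 0.06, limma adjusted p = 0.455), or -0.10 without knockout replicate 3. The highest was Nppa, which encodes a heart peptide hormone, with 0.34 (SE 0.18, limma adjusted p = 0.529) and overlapping groups, and it was at 0.14 without heterozygote replicate 2 and at 0.63 with the mean of the Y-linked genes as a covariate.

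Pools also differed in other ways. Of 12 markers of the embryonic head 11 were measured, and their mean log2 intensity lay between 8.23 and 8.37 in every pool. Single genes of that list differed between the genotypes in both directions without passing an adjusted p of 0.05: in limma at an unadjusted p under 0.05, Hesx1 (-0.39), Rax (-0.20) and Six3 (-0.17) were lower and Egr2 (0.24) and Sox1 (0.20) higher, with adjusted p from 0.356 to 0.457. At the unadjusted threshold there were 3 lower (27.3%) and 2 higher genes (18.2%), against 4.66% and 5.97% of all rows. The groups did not overlap for 5 of the 11 on the lower side (45.5%) and 1 on the higher side (9.09%). Among all rows these shares were 9.03% and 8.03%, and among the 7263 brightest, which hold 7 of the 11, 16.8% and 3.06%. The mean over 7 of 8 primitive blood genes reached 6.91 in knockout pool 2 and 5.96 in knockout pool 3, with 5.21 to 5.60 elsewhere. The globin genes Hba-x, Hbb-bh1 and Hbb-y stood at 10.09, 8.87 and 6.79 in knockout pool 2, against heterozygote means of 6.73, 4.91 and 4.62. Gata1, Klf1, Slc4a1 and Alas2 stood at 5.63, 5.18, 5.82 and 5.99 there, against 5.30, 4.90, 5.68 and 6.07. The mean over 9 visceral endoderm genes was 8.08 in knockout replicate 3 and 9.05 to 9.36 in the others. The mean over 8 heart genes lay between 9.90 and 10.05. The mean over 3 of 4 Y-linked genes was 6.24 and 6.16 in heterozygote replicates 1 and 3 and 7.52 to 7.97 in the others, and Xist, expressed in female cells, stood at 4.22 in heterozygote replicate 2, 3.74 in knockout replicate 2 and 8.82 to 10.2 in the remaining pools. With the Y-linked mean as a covariate, the log2 fold changes were 0.44 for Zfp979 and 0.43 for Zfp980. The part of blood and visceral endoderm cells in the members' values was not tested.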

How the data were processed

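Heads from 3 heterozygote and 3 knockout pools were measured, with genotype and replicate number as the labels give them. Per the submitters' processing notes, the authors used RMA (a method that corrects background, normalizes between arrays and combines the probes of a set) as run by Affymetrix Power Tools, whose versions are not given in the sources used here. Intensity values as deposited run from 2.53 to 11741 on a linear scale, with array medians of 58.1 to 62.9, and their log2 was used throughout; the design had assumed log2 values. The table carries no comparison by the authors and no detection call. The number of arrays limits the precision.

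Of 35556 rows, 21789 have 1 gene symbol in the platform annotation, 1621 have several and 12146 have none listed. RefSeq (GRCm38.p6) gave gene order, chromosomes and upstream sequences. The deposited table names no genome build, so no position of a probe set is given.

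The linear model of limma 3.58.1 (R 4.3.3, functions lmFit and eBayes) was fitted to all 21789 rows without a covariate, with Benjamini-Hochberg adjustment of its p-values over those rows. Rows with several symbols were fitted in a separate run on all 35556 rows. An exact permutation test of 3 pools against 3 has 0.1 as its smallest two-sided p, and none was run. Summaries used Python 3.11.15, and windows were aligned with Biopython 1.88. The scripts were tested on simulated data.

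Named are Zfp979 and Zfp980, members whose groups do not overlap, the 3 highest and 3 lowest, the 2 largest and 2 smallest SDs, members of the same cluster, and in the lists of corepressors, described KRAB zinc finger genes and chromosomal neighbors the highest, the lowest and those at an unadjusted p under 0.05. Of the marker lists, which check the pools, only Xist, the head genes at an unadjusted p under 0.05 and the measured primitive blood genes are named. The following were named after seeing their values: Zfp971 and the members far below their mean in knockout replicate 1, the chromosome 17 run with Zfp758, Zfp948, Trim28, Zfp850 and the primitive blood genes. The members and lists were chosen with earlier results of these data known. Alternatives left out dim rows, used all rows, averaged rows per gene, centered arrays on their median, applied quantile or cyclic loess normalization, changed the variance model, weighted arrays, added a Y-linked covariate or the replicate number as a block, took current symbols, and left out each pool. Other assays and stages of the study were not analysed here.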

Additional observations from a re-analysis of the deposited data

How the results depend on the processing

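Over 17 alternatives the members' median log2 fold change stayed between -0.03 and 0.01, and 0 members passed an adjusted p of 0.05 in limma under each of them. Zfp979 lay between 0.39 and 0.55. Zfp980 lay between 0.43 and 0.59 over 16 alternatives, since the filter on dim rows removed its row. Of 169 values of the 10 named members under an alternative, 2 moved by more than the spread between pools: Zfp933 to -0.05 after quantile normalization and Zfp953 to -0.30 with Y-linked genes as a covariate. The count of members lower at an unadjusted p under 0.05, 4 as reported, was 1 with all rows, 2 after quantile normalization and 2 after cyclic loess. Members lower without overlap, 4 as reported, were 2 after quantile normalization. Leaving out each pool in turn gave 2 to 6 members higher and 0 to 5 lower at an unadjusted p under 0.05. Of these lower counts, 0 was without knockout replicate 1, 1 without heterozygote replicate 2 and 2 without heterozygote replicate 3. Over all 21789 rows the same fits gave 1028 to 1383 higher and 619 to 1077 lower. Leaving out a pool also gave 3 to 8 members higher without overlap, with 8 without knockout replicate 1 and 5 without heterozygote replicate 1. On the lower side it gave 5 to 8 without overlap, with 8 without heterozygote replicate 2 and 7 without knockout replicate 3. Groups of 2 pools against 3 overlap less readily. Rows without overlap were not counted over the whole array under these alternatives, and nothing is read from the member counts. The median of the other numbered Zfp genes, -0.0297 as reported, was -0.0156 after quantile normalization and -0.0461 with the Y-linked covariate. Their counts, 7 higher and 28 lower, became 16 lower with that covariate, and 3 to 10 higher and 17 to 23 lower when a pool was left out, with 3 and 4 higher without heterozygote replicates 3 and 2 and 17 and 18 lower without heterozygote replicates 2 and 1. Zfp600 ran from -0.0555 without knockout replicate 1, where its sign turned, to 0.199 without knockout replicate 2. The causes were not tested. The split of all rows at an unadjusted p under 0.05, 1301 higher and 1016 lower, was 650 and 1131 without dim rows, 1055 and 1391 with a trended and robust variance, 895 and 900 after quantile normalization and 889 and 929 after cyclic loess. It was 1032 and 730 with the Y-linked covariate, and 1806 and 1245 when all 35556 rows were fitted. No detection call was used, so whether dim rows such as that of Zfp980 were above background was not tested.

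Deviations of pools with the same replicate number had correlations of 0.00, 0.11 and -0.01 across rows (0.000759, 0.106 and -0.0132). Pools of unlike number had -0.08 to 0.08. Such correlations cannot exclude a shared litter or batch, and whether the number stands for one was not tested. The main fit did not pair the pools. With the replicate block, 3 members were higher, 5 lower and 0 at an adjusted p under 0.05, and the members' median was -0.0162. The other numbered Zfp genes counted 7 higher and 20 lower with the block, and Jarid1b was at -1.55.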
